A study of Mus musculus with 8 samples.

Results

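The genes described here serve glucose breakdown, glucose synthesis and the response to low oxygen. They are a chosen list of 34 mouse genes, found by symbol, and all 34 of 34 were rows of the deposited expression table, which held 23951 gene symbols. RNA had been sequenced from crypts, the stem-cell-bearing pits of the gut lining, taken from the jejunum, a stretch of the small intestine. The tissue was collected 1 day after 4 days of tamoxifen, which switches on the recombinase CreER(T2). Villin drives that recombinase, so it acts in the epithelium of the intestine. Every mouse carried the BRAF-V600E f/+ allele, an activating form of the kinase BRAF, so BRAF-V600E was shared by all groups and its own effect was not measured here. CDX2KO_BRAF mice (2 libraries) also carried Cdx2 f/f, SMAD4KO_BRAF mice (3 libraries) also carried Smad4 f/f, and BRAF mice (3 libraries) carried neither. CDX2 is a transcription factor of intestinal identity and SMAD4 carries TGF-beta and BMP signals to the nucleus. The labels do not say whether the libraries of a group came from separate animals, so a p-value here reflects how far these libraries vary and may miss variation between animals.

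Glycolysis splits glucose into pyruvate, and lactate dehydrogenase turns pyruvate into lactate, which leaves the cell through monocarboxylate carriers. Gluconeogenesis runs the path in reverse, with its own enzymes at the irreversible steps, and fructose 2,6-bisphosphate pushes flux towards glycolysis. When oxygen is short, prolyl hydroxylases stop marking the HIF alpha subunits for destruction, and HIF then switches on many glycolytic genes. HIF is controlled largely through protein stability, which RNA levels do not show. In the small intestine, absorptive cells of the villus take up dietary sugar and express gluconeogenic and fructose-handling enzymes, while crypt cells divide.

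Values were FPKM, a read abundance per unit of transcript length and library size, as the authors deposited them. Totals ran from 431269 to 595547 FPKM per library, and 10924 to 11570 genes reached 1 FPKM in each. Absolute depth is unknown, and the step size of low values put the libraries at 0.719 to 1.46 times the depth of BRAF library 0. Libraries are numbered 0 to 2 as the table's columns number them, because those numbers could not be tied to the numbered sample titles. Smad4 was at 10.7, 8.38 and 7.66 FPKM in SMAD4KO_BRAF crypts and at 42.5, 47.0 and 42.4 FPKM in BRAF crypts. Cdx2 went against its label. It was at 155 and 121 FPKM in the libraries labelled CDX2KO_BRAF and at 64.2, 82.6 and 80.1 FPKM in BRAF crypts (log2 difference 0.86 ± 0.18 SE, adjusted p = 0.0213). A value per gene does not show which exons were read, so every direction given below is for the libraries labelled CDX2KO_BRAF. BRAF library 0 and SMAD4KO_BRAF library 0 expressed Y-linked genes and the other 6 libraries did not, so sex differed within the SMAD4KO_BRAF and BRAF groups. All 10 of 10 general epithelial markers passed the filter on low values, as did 13 of 14 T cell, 8 of 10 myeloid, 8 of 13 mesenchymal and 1 of 10 endothelial markers.

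Ldha, the lactate dehydrogenase subunit that favours lactate formation, had the highest level of the 34 genes, with a median of 585 FPKM over the 8 libraries. Aldoa, the ubiquitous aldolase, followed at 405 FPKM. Tpi1, which interconverts the triose phosphates, was at 226 FPKM, and Pkm, a pyruvate kinase, at 189 FPKM. Gpi1, which isomerises glucose 6-phosphate, had a median of 109 FPKM, and Pfkp, the platelet-type phosphofructokinase, 96.8 FPKM. The ranges of neighbours in this order overlapped between libraries. Aldoa ran from 328 to 589 FPKM and Tpi1 from 164 to 339 FPKM. Ldhb, the lactate dehydrogenase subunit of oxidative tissues, was the lowest, at 0.0313 to 0.23 FPKM, and was the only gene of the list to miss the filter of at least 1 FPKM in 2 libraries. As listed, Ldha made up 99.96% to 99.99% of the summed Ldha and Ldhb FPKM, a share that rests on the low listed level of Ldhb. Among the phosphofructokinases, Pfkp was the main form in every library, at 64.2% to 78.0% of their summed FPKM.

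**Figure D1:**
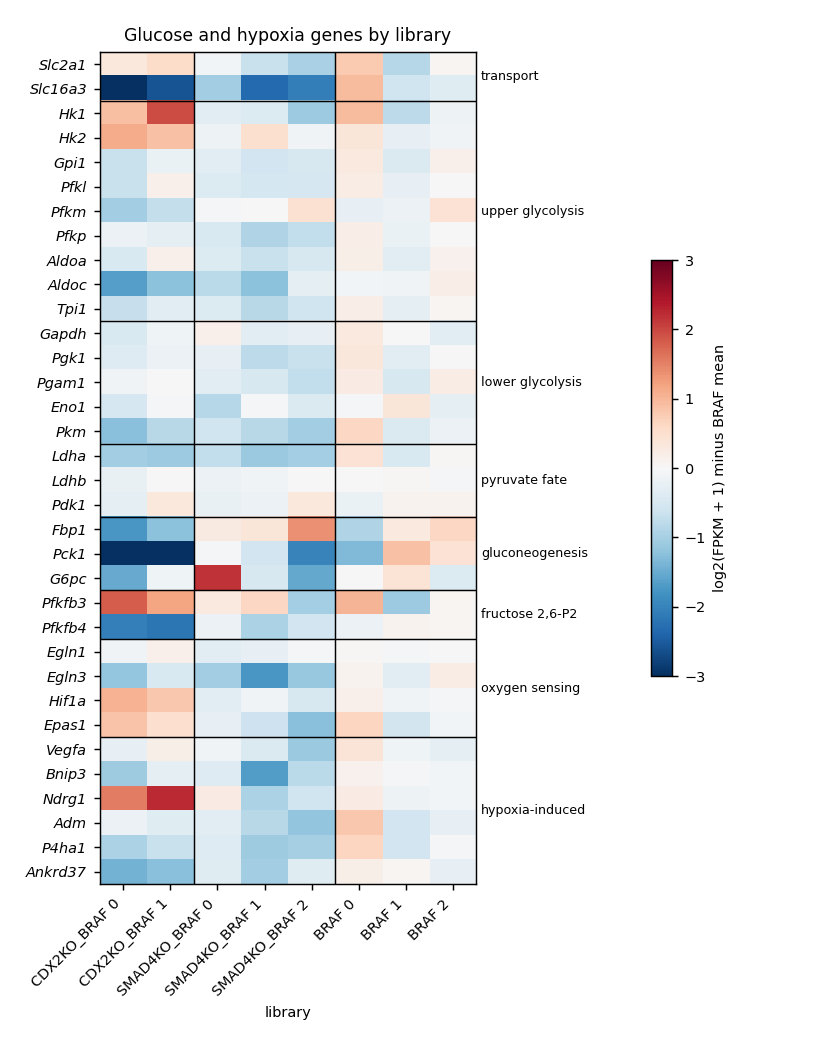
Level of each of the 34 genes in each of the 8 libraries, ordered by role, coloured by log2(FPKM + 1) minus that gene's mean in BRAF (colours saturate at the ends of the bar), with the libraries labelled CDX2KO_BRAF left, SMAD4KO_BRAF in the middle and BRAF right. Slc16a3, Pck1 and Pfkfb4 are low in both libraries labelled CDX2KO_BRAF, and Hif1a and Ndrg1 are high there.

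Several listed levels are implausible as RNA abundance. Gapdh encodes the glycolytic dehydrogenase between Tpi1 and Pgk1, a step every glycolysing cell uses, yet it was listed at 0.554 and 0.948 FPKM in the libraries labelled CDX2KO_BRAF, at 1.36, 0.685 and 0.806 FPKM in SMAD4KO_BRAF and at 1.62, 1.15 and 0.724 FPKM in BRAF. Its median of 0.877 FPKM compares with 226 FPKM for Tpi1, the enzyme before it. Pgk1 (phosphoglycerate kinase, median 14.9 FPKM), Pgam1 (phosphoglycerate mutase, 5.90 FPKM) and Eno1 (enolase, 20.8 FPKM), which act next, were also far below Pkm, which acts after them. All 4 of these genes share sequence with annotated processed pseudogenes, Gapdh with by far the most. Of the 50-base stretches of the Gapdh transcript, the length of a read here, 1131 of 1371 (82.5%) also occur in transcripts of other annotated genes, among them 215 pseudogenes. The shares were 72.2% for Eno1 (8 pseudogenes), 68.0% for Pgk1 (5) and 41.5% for Pgam1 (4), against 7.51% for Tpi1 (2). Eno1 shares 1395 of its 1978 stretches with Eno1b, a protein-coding entry with its own row, at 0 to 24.8 FPKM over the 8 libraries. How reads were split between Eno1 and Eno1b is not known. A high share did not always go with a low listed level. Pkm shared 34.4% at 189 FPKM, and the ribosomal protein gene Rps18 shared 86.7% at a median of 103 FPKM. Rps18 was itself uneven, from 0.963 FPKM in SMAD4KO_BRAF library 1 to 120 FPKM in library 1 of the group labelled CDX2KO_BRAF. Ppia, a cyclophilin used as a housekeeping gene, shared 38.8% at 0.0931 to 1.52 FPKM. How such reads were assigned was not tested, so no level is drawn from Gapdh, Pgk1, Pgam1, Eno1 or Bnip3 (62.4% shared), and their differences between groups stand with that limit. Ldhb, listed under 1 FPKM in every library, shared 27% of its stretches with 1 pseudogene. The share of Ldha in the summed Ldha and Ldhb FPKM therefore stands with the same limit. In all, 13 of the 34 genes shared at least 10% of their stretches, Pfkp, Ndrg1 and Ankrd37 with neighbouring or antisense genes. The kit does not mark strand, so overlapping genes cannot be told apart.

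**Figure D2:**
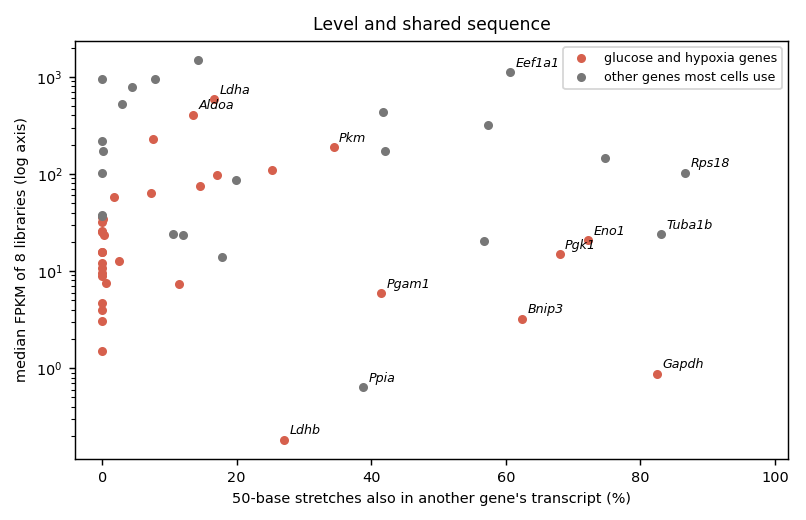
Median FPKM over the 8 libraries (log axis) against the percent of each gene's 50-base stretches that also occur in transcripts of another gene, for the 34 genes and for housekeeping genes. Gapdh lies at 82.5% and 0.877 FPKM, and Eef1a1, a housekeeping gene, lies at 60.6% and 1116 FPKM.

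Against BRAF, the libraries labelled CDX2KO_BRAF had lower RNA for the lactate exporter gene Slc16a3, for Ldha and for the gluconeogenic gene Pck1, and higher RNA for Hif1a, Hk2 and Ndrg1. Of 33 genes tested, 6 fell (18.2%, against 7.21% of all 12084 genes tested) and 3 rose (9.09%, against 6.89% of all genes tested), at an adjusted p under 0.05 in limma. Slc16a3, Aldoc, Ldha, Pck1, Pfkfb4 and Ankrd37 fell. The median log2 difference was -0.29 over the 33 genes and 0.02 over all genes tested, on the log2(FPKM + 1) scale used throughout, and 24 of 33 differences were negative (72.7%, against 47.5% of all genes). Both libraries lay below all 3 BRAF libraries for 13 of 33 genes (39.4%, against 22.7%) and above them for 4 (12.1%, against 25.7%). In bulk RNA, fewer cells of a type and less RNA per cell cannot be told apart. Without BRAF library 2 the count of calls was 4, and without either library labelled CDX2KO_BRAF it was 2, with 1 library left in that group and assumed to vary like the others.

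Promoter sequence is shown for the 5 called genes whose window held the core of the HIF-binding element, because several genes of the list are known HIF targets. The motif searched was ACGTG on either strand, so a match reads ACGTG or CACGT, and the palindrome CACGTG counts on both strands. Windows of 250 bases before the first listed transcript start came from RefSeq on GRCm38.p6, whereas the FPKM were made on mm9, so no coordinate is carried between them. For Ldha, Hif1a and Pgam1, the bases just after the listed start were not found in a GENCODE M21 transcript of the gene, so their starts are less certain. Of the 34 genes, 32 had a window (Epas1 and the called gene Ndrg1 had none) and 14 of 32 held a match (43.8%), against 22.2% of 8984 tested genes and 16.6% of 27025 genes with a window. The variant GCGTG occurred in 15 of 32 windows (46.9%), against 45.8% of the tested genes. Capitals mark the matches, and each sequence runs 5′ to 3′ on the gene's strand. Slc16a3 lies at chr11:120948817-120949066 on the plus strand, Hk2 at chr6:82774455-82774704 on the minus strand, Ldha at chr7:46845554-46845803 on the plus strand, Hif1a at chr12:73907617-73907866 on the plus strand and Ankrd37 at chr8:45999851-46000100 on the minus strand.
Slc16a3: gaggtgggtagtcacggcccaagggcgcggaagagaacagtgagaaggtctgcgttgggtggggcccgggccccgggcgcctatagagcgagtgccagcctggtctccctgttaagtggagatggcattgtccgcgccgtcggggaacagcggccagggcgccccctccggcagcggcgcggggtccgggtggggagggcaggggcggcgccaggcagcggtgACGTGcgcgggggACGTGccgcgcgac
Hk2: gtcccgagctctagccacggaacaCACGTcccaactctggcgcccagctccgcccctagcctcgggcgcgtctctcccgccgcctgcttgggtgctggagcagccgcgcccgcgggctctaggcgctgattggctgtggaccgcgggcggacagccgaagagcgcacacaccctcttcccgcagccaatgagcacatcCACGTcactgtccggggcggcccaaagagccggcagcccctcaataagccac
Ldha: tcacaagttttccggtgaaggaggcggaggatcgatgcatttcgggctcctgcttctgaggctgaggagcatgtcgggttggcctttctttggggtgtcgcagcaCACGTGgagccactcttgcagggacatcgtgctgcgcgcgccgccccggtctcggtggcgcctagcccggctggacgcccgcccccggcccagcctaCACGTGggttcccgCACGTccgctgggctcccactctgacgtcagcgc
Hif1a: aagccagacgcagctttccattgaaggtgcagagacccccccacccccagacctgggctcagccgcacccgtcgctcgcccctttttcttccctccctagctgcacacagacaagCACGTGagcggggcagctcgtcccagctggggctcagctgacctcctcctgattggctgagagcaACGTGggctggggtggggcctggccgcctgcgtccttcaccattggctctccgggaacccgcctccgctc
Ankrd37: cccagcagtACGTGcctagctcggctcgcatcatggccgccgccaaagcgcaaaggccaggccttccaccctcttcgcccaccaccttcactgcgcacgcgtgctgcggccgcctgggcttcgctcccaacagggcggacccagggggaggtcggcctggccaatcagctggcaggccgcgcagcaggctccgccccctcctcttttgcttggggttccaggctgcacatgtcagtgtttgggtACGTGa
Ldha held 5 matches, Hif1a 3, and Slc16a3, Hk2 and Ankrd37 2 each. Aldoc and Pfkfb4 held no ACGTG and 1 GCGTG each, and Pck1 held neither. The called genes with a match include falling and rising ones, and a match describes letters in a window and not a bound site.

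Of the carriers for glucose entry and lactate exit, the lactate exporter fell. Slc16a3 encodes MCT4, the lactate exporter of glycolytic cells. It was at 2.38 and 5.05 FPKM in the libraries labelled CDX2KO_BRAF and at 68.8, 23.1 and 27.4 FPKM in BRAF. The groups did not overlap, and BRAF library 0 stood high. Slc16a3 fell 10.7-fold by its means, with a log2 difference of -3.00 ± 0.56 (SE, limma adjusted p = 0.0144). Its share of the summed FPKM of 3 monocarboxylate carriers was 3.79% and 9.34% in the libraries labelled CDX2KO_BRAF and 54.4%, 32.0% and 31.0% in BRAF. Slc16a1, the more widely expressed carrier, ran from 46.4 to 60.7 FPKM over all libraries. Slc2a1 encodes the glucose carrier GLUT1. It was at 72.1 and 85.2 FPKM in the libraries labelled CDX2KO_BRAF, inside the BRAF range of 101, 31.7 and 60.8 FPKM, and did not pass (0.43 ± 0.46, limma adjusted p = 0.575).

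Hexokinases trap glucose as glucose 6-phosphate, and their makeup differed. Hk2, the inducible form bound to mitochondria, was at 63.1 and 53.5 FPKM in the libraries labelled CDX2KO_BRAF and at 37.4, 23.8 and 26.4 FPKM in BRAF. All BRAF values lay lower, and Hk2 rose 1.99-fold (log2 difference 0.99 ± 0.25 SE, limma adjusted p = 0.043). Hk1, the form most cells express, was at 29.0 and 61.4 FPKM in the libraries labelled CDX2KO_BRAF and at 29.9, 8.28 and 13.4 FPKM in BRAF. The Hk1 ranges overlapped and it missed the threshold (1.43 ± 0.54, limma adjusted p = 0.129). Hkdc1, a hexokinase-like gene outside the list, fell to 40.1 and 27.5 FPKM, against 156, 109 and 159 FPKM in BRAF (-2.04 ± 0.36, limma adjusted p = 0.0115). Hkdc1 thus made up 30.3% and 19.3% of summed hexokinase FPKM in the libraries labelled CDX2KO_BRAF and 69.8% to 79.9% in BRAF. In SMAD4KO_BRAF it made up 73.4%, 47.25% and 70.9%. The share of Hk2 was 47.7% and 37.6% in the libraries labelled CDX2KO_BRAF and 13.3% to 16.8% in BRAF. In SMAD4KO_BRAF it was 18.0%, 41.4% and 22.9%, so library 1 of SMAD4KO_BRAF lay between the libraries labelled CDX2KO_BRAF.

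Between glucose 6-phosphate and triose phosphate, a minor aldolase was the only enzyme of the list to pass. Aldoc, the brain-type aldolase, was at 3.81 and 5.50 FPKM in the libraries labelled CDX2KO_BRAF and at 13.3, 13.2 and 16.4 FPKM in BRAF. It fell 3.07-fold with no overlap (-1.45 ± 0.27, limma adjusted p = 0.0152), but it contributed at most 1.30% of summed aldolase FPKM in any library. Aldoa was at 379 and 575 FPKM in the libraries labelled CDX2KO_BRAF and at 589, 420.5 and 571 FPKM in BRAF, so the ranges overlapped (-0.16, limma adjusted p = 0.699). Pfkm, the muscle-type phosphofructokinase, was at 1.59 and 2.25 FPKM in the libraries labelled CDX2KO_BRAF and at 3.48, 3.77 and 6.18 FPKM in BRAF. Both values lay below BRAF without passing (-0.89 ± 0.26, limma adjusted p = 0.0679). Pfkl, the liver type, was at 26.9 and 47.8 FPKM in the libraries labelled CDX2KO_BRAF and at 50.4, 36.4 and 43.5 FPKM in BRAF. Pfkp was at 101 and 95.0 FPKM there and at 130.1, 98.6 and 115 FPKM in BRAF. Neither Pfkl nor Pfkp passed (limma adjusted p = 0.517 and 0.444), and both overlapped BRAF. Tpi1 was at 182 and 231 FPKM in the libraries labelled CDX2KO_BRAF, below the 339, 244 and 305 FPKM of BRAF, but did not pass (-0.52, limma adjusted p = 0.152). Gpi1 overlapped, at 89.6 and 126 FPKM in the libraries labelled CDX2KO_BRAF and 176, 105 and 159 FPKM in BRAF (limma adjusted p = 0.297).

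Of the steps from triose phosphate to pyruvate, Pkm stood out in size without passing. It was at 130.1 and 174 FPKM in the libraries labelled CDX2KO_BRAF and at 477, 228 and 273 FPKM in BRAF, so the groups did not overlap (-1.03 ± 0.32, limma adjusted p = 0.0782). The table does not separate the Pkm isoforms. Gapdh, Pgk1, Pgam1 and Eno1, whose listed levels are in doubt, had log2 differences of -0.29, -0.29, -0.05 and -0.29, and none passed. Pgk1 was at 13.9 and 16.3 FPKM in the libraries labelled CDX2KO_BRAF and at 23.6, 14.4 and 18.8 FPKM in BRAF. Pgam1 was at 6.48 and 7.06 FPKM there, against 8.63, 4.77 and 8.40 FPKM in BRAF. Eno1 was at 16.3 and 22.6 FPKM there, against 22.7, 30.6 and 19.0 FPKM in BRAF. All 4 overlapped BRAF.

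At the fork where pyruvate becomes lactate or enters mitochondria, Ldha fell. It was at 520.0 and 503 FPKM in the libraries labelled CDX2KO_BRAF and at 1434, 782 and 1089.9 FPKM in BRAF. The means were 511 ± 12.1 FPKM (SD, n = 2) in the libraries labelled CDX2KO_BRAF and 1102 ± 326 FPKM (SD, n = 3) in BRAF, and every BRAF value was higher. Ldha fell 2.15-fold (-1.06 ± 0.28, limma adjusted p = 0.0457), close to the threshold, and the call was lost without BRAF library 0 (adjusted p = 0.0886) or BRAF library 2 (0.107). Pdk1, the kinase that shuts pyruvate out of the mitochondrial oxidation step, was at 13.2 and 20.5 FPKM in the libraries labelled CDX2KO_BRAF and at 14.0, 17.6 and 17.4 FPKM in BRAF (0.02, limma adjusted p = 0.964).

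Among the gluconeogenic genes, Pck1 had the largest log2 difference of the 33 genes. Pck1 encodes the cytosolic carboxykinase that commits oxaloacetate to glucose synthesis. It was at 1.36 and 3.33 FPKM in the libraries labelled CDX2KO_BRAF and at 19.2, 91.2 and 67.2 FPKM in BRAF. It fell 25.3-fold by its means with no overlap (-3.97 ± 0.77, limma adjusted p = 0.017). Fbp1 encodes a phosphatase that opposes phosphofructokinase. It was at 1.42 and 2.48 FPKM in the libraries labelled CDX2KO_BRAF and at 3.34, 9.01 and 11.5 FPKM in BRAF. Its groups did not overlap but it did not pass (-1.49 ± 0.51, limma adjusted p = 0.101). Fbp2, outside the list, encodes another such phosphatase and was listed far higher. Fbp2 was at 135 and 149 FPKM in the libraries labelled CDX2KO_BRAF, 176, 134 and 160 FPKM in SMAD4KO_BRAF and 176, 153 and 222 FPKM in BRAF. It was not called in either comparison with BRAF. G6pc, which releases free glucose, varied within groups, at 1.42 and 5.32 FPKM in the libraries labelled CDX2KO_BRAF and 5.94, 8.09 and 4.13 FPKM in BRAF (limma adjusted p = 0.624).

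Pfkfb4 and Pfkfb3 encode enzymes that make and remove fructose 2,6-bisphosphate, and Pfkfb4 fell. It was at 7.02 and 6.42 FPKM in the libraries labelled CDX2KO_BRAF and at 28.7, 35.2 and 33.9 FPKM in BRAF. Values within each group lay close together and far from the other group. Pfkfb4 fell 4.85-fold (-2.12 ± 0.22, limma adjusted p = 0.00176), the smallest p of the list in this comparison, and it passed under all 18 alternative settings (adjusted p from 0.000333 to 0.0265). Pfkfb3, the family's strongest kinase, lay above BRAF, at 20.5 and 13.0 FPKM in the libraries labelled CDX2KO_BRAF and 11.5, 1.87 and 5.39 FPKM in BRAF, but BRAF varied widely and it did not pass (1.50 ± 0.68, limma adjusted p = 0.196).

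Hif1a, the oxygen-regulated HIF subunit, was at 139 and 118 FPKM in the libraries labelled CDX2KO_BRAF and at 74.5, 61.8 and 65.0 FPKM in BRAF. It rose 1.92-fold with no overlap (0.93 ± 0.16, limma adjusted p = 0.00979), and the call was lost without library 0 of the group labelled CDX2KO_BRAF (0.0784). Epas1, which encodes HIF-2 alpha, was at 23.2 and 17.9 FPKM there, overlapping the 19.9, 8.06 and 11.5 FPKM of BRAF (0.68, limma adjusted p = 0.307). Of the oxygen-sensing prolyl hydroxylases, Egln1 was at 15.3 and 18.3 FPKM in the libraries labelled CDX2KO_BRAF and at 16.8, 15.8 and 16.6 FPKM in BRAF (0.03, limma adjusted p = 0.904). Egln3, a hydroxylase that HIF itself induces, was at 26.3 and 43.6 FPKM there, below the 64.6, 47.7 and 70.5 FPKM of BRAF, but did not pass (-0.81 ± 0.30, limma adjusted p = 0.122).

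Of the list's 6 other genes known to be induced by hypoxia, 1 rose and 1 fell in the libraries labelled CDX2KO_BRAF. Of all genes tested, 6.89% rose and 7.21% fell there. Differences were negative for 5 of the 6, against 47.5% of all genes tested, with a median log2 difference of -0.48. Ndrg1, a stress-responsive gene of differentiated epithelium, was at 205 and 337 FPKM there and at 83.6, 62.7 and 66.2 FPKM in BRAF. It rose 3.83-fold (1.89 ± 0.36, limma adjusted p = 0.0166). Ankrd37, a small ankyrin-repeat gene, was at 3.05 and 3.53 FPKM in the libraries labelled CDX2KO_BRAF and at 11.2, 10.2 and 8.14 FPKM in BRAF, and fell 3.00-fold (-1.33 ± 0.24, limma adjusted p = 0.0128). Neither gene overlapped BRAF. The other 4 did not pass. Vegfa, the angiogenic growth factor, was at 22.3 and 29.8 FPKM in the libraries labelled CDX2KO_BRAF and at 34.9, 24.1 and 21.8 FPKM in BRAF (-0.03). Bnip3, a mitophagy receptor, was at 1.58 and 3.37 FPKM there and at 4.87, 4.22 and 4.07 FPKM in BRAF (-0.68, limma adjusted p = 0.295). P4ha1, a collagen prolyl hydroxylase, was at 2.2 and 2.89 FPKM there and at 8.65, 3.17 and 4.98 FPKM in BRAF (-0.82, limma adjusted p = 0.191). Both lay below BRAF in all libraries. Adm, the vasodilator adrenomedullin, overlapped, at 1.79 and 1.44 FPKM in the libraries labelled CDX2KO_BRAF and 4.51, 1.12 and 1.68 FPKM in BRAF (-0.27).

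**Figure D3:**
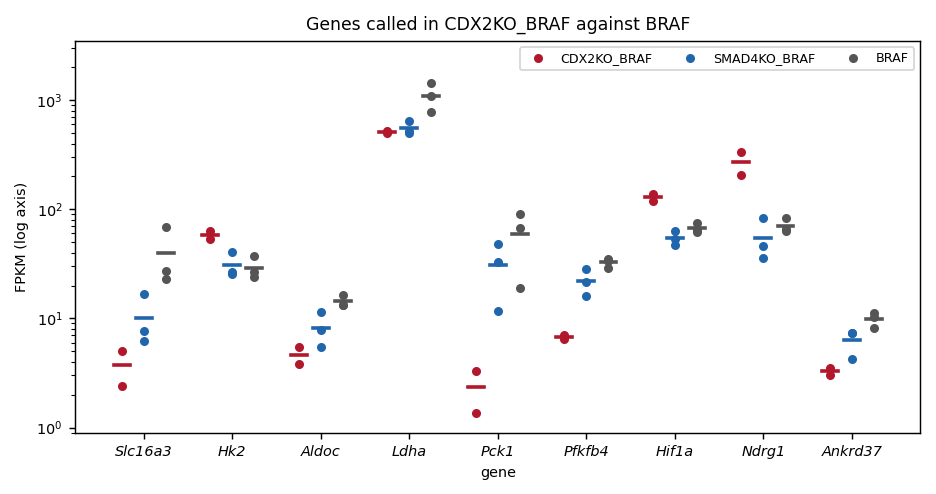
FPKM per library (points, log axis) of the 9 genes called in the libraries labelled CDX2KO_BRAF against BRAF, with those libraries left, SMAD4KO_BRAF in the middle and BRAF right, and a line at each group mean. Pfkfb4 lies at 7.02 and 6.42 FPKM in the libraries labelled CDX2KO_BRAF, below all 6 other libraries, and Hif1a lies at 139 and 118 FPKM, above them.

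The 9 calls rested on few libraries. Without library 0 of the group labelled CDX2KO_BRAF, the calls of Pfkfb4 and Ndrg1 remained. The other 7 genes had adjusted p from 0.0784 (Hif1a) to 0.226 (Hk2). Without library 1 of that group, Pfkfb4 and Hif1a remained, and the other 7 ran from 0.0609 (Aldoc) to 0.203 (Ldha). Without BRAF library 2, Slc16a3, Ankrd37, Pfkfb4 and Hif1a remained. The other 5 were Aldoc (0.0505), Ndrg1 (0.0523), Pck1 (0.0545), Ldha (0.107) and Hk2 (0.113). Hk2 was also lost without BRAF library 1 (0.0996) or SMAD4KO_BRAF library 2 (0.0603). Ldha was also lost without SMAD4KO_BRAF library 1 (0.0671) or 2 (0.0747), which enter the shared estimate of spread. No call changed direction when a library was left out.

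SMAD4KO_BRAF crypts, set against BRAF, showed lower values for most of the list, but no gene passed. limma called 0 of 33 genes, and 9 of all 12084 genes tested (0.0745%). At an unadjusted p under 0.05, 14 of 33 genes were lower (42.4%, against 9.05% of all genes tested) and none of the 33 was higher. Differences were negative for 29 of 33 genes (87.9%, against 51.8% of all genes), with a median log2 difference of -0.57, against -0.01 over all genes tested. All 3 SMAD4KO_BRAF libraries lay below all 3 BRAF libraries for 13 of 33 genes (39.4%, against 10.4%) and above them for none. The median over the list of log2(FPKM + 1) minus each gene's BRAF mean was -0.31, -0.63 and -0.67 in SMAD4KO_BRAF libraries and 0.22, -0.24 and 0.02 in BRAF libraries, so those groups did not overlap. With libraries weighted by their quality, a fit that called 1069 genes in all, limma called 8 of the list, all lower. They were Egln3, Ldha, Pfkfb4, Pfkp, Pgam1, Pgk1, Slc16a3 and Tpi1, at adjusted p from 0.0315 to 0.0433. With sex as a term, Slc16a3 passed (adjusted p = 0.0365).

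By role, the median log2 difference of SMAD4KO_BRAF from BRAF was -1.20 for glucose entry and lactate exit, -0.52 for the steps to triose phosphate and -0.53 for those to pyruvate. It was -0.50 for oxygen sensing, -0.68 for other hypoxia-induced genes and 0.05 for gluconeogenesis. Egln3 had the smallest unadjusted p (0.00158, adjusted 0.179 in limma), at 28.7, 17.4 and 27.0 FPKM in SMAD4KO_BRAF and 64.6, 47.7 and 70.5 FPKM in BRAF. Its share of the summed FPKM of the 3 Egln genes was 37.5%, 31.1% and 36.1% in SMAD4KO_BRAF and 55.0%, 51.8% and 56.1% in BRAF. In the libraries labelled CDX2KO_BRAF that share was 31.8% and 42.1%. Pfkp followed (unadjusted p = 0.00236), at 82.3, 60.3 and 68.3 FPKM in SMAD4KO_BRAF and 130.1, 98.6 and 115 FPKM in BRAF. Ldha was at 643, 497 and 527 FPKM in SMAD4KO_BRAF and at 1434, 782 and 1089.9 FPKM in BRAF (-0.95 ± 0.25, limma adjusted p = 0.215). Slc16a3 was at 16.7, 6.22 and 7.60 FPKM in SMAD4KO_BRAF and at 68.8, 23.1 and 27.4 FPKM in BRAF (-1.82 ± 0.50, limma adjusted p = 0.229). None of these 4 genes overlapped between the groups.

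A further 9 genes lay lower in SMAD4KO_BRAF with no overlap, and none of them passed. Tpi1 was at 221, 164 and 192 FPKM in SMAD4KO_BRAF and at 339, 244 and 305 FPKM in BRAF (-0.62 ± 0.19, limma adjusted p = 0.249). Aldoc was at 7.76, 5.52 and 11.4 FPKM in SMAD4KO_BRAF and at 13.3, 13.2 and 16.4 FPKM in BRAF (-0.77, limma adjusted p = 0.268). Pkm was at 204, 172 and 150.2 FPKM in SMAD4KO_BRAF and at 477, 228 and 273 FPKM in BRAF (-0.83 ± 0.29, limma adjusted p = 0.279). These 3 enzymes act before or after the doubtful middle steps of glycolysis. Pfkfb4 was at 28.5, 16.2 and 21.5 FPKM in SMAD4KO_BRAF and at 28.7, 35.2 and 33.9 FPKM in BRAF, with its highest SMAD4KO_BRAF value at the edge of BRAF (-0.57 ± 0.20, limma adjusted p = 0.279). Bnip3 was at 3.09, 0.677 and 2.07 FPKM in SMAD4KO_BRAF, against 4.87, 4.22 and 4.07 FPKM in BRAF (-0.96). Ankrd37 was at 7.37, 4.23 and 7.41 FPKM in SMAD4KO_BRAF, against 11.2, 10.2 and 8.14 FPKM in BRAF (-0.59). Neither passed (limma adjusted p = 0.288 and 0.29). Aldoa, at 389, 328 and 372 FPKM in SMAD4KO_BRAF, lay just below the lowest BRAF value of 420.5 FPKM. Pfkl did likewise, at 32.2, 29.3 and 30.0 FPKM in SMAD4KO_BRAF with a lowest BRAF value of 36.4 FPKM. Egln1 was at 12.8, 13.7 and 15.6 FPKM in SMAD4KO_BRAF, a log2 difference of -0.21 from BRAF.

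Gluconeogenic and HIF genes of SMAD4KO_BRAF crypts overlapped BRAF. Pck1 was at 48.2, 32.5 and 11.6 FPKM in SMAD4KO_BRAF and at 19.2, 91.2 and 67.2 FPKM in BRAF. Fbp1 was at 8.85, 9.53 and 20.1 FPKM in SMAD4KO_BRAF and at 3.34, 9.01 and 11.5 FPKM in BRAF. G6pc reached 29.8 FPKM in SMAD4KO_BRAF library 0, against 3.89 and 1.37 FPKM in the other SMAD4KO_BRAF libraries and 4.13 to 8.09 FPKM in BRAF. The spread inside groups was as wide as that between them for these 3 genes. Hif1a was at 53.9, 62.6 and 47.5 FPKM in SMAD4KO_BRAF and at 74.5, 61.8 and 65.0 FPKM in BRAF (-0.30, limma adjusted p = 0.362). Epas1 was at 10.2, 7.60 and 4.63 FPKM in SMAD4KO_BRAF and at 19.9, 8.06 and 11.5 FPKM in BRAF (-0.71, limma adjusted p = 0.382). The remaining genes (Slc2a1, Hk1, Hk2, Gpi1, Pfkm, Gapdh, Pgk1, Pgam1, Eno1, Pdk1, Pfkfb3, Vegfa, Ndrg1, Adm and P4ha1) had differences between -0.82 for P4ha1 and 0.13 for Pfkm, and all overlapped BRAF. Slc2a1 was at 54.6, 36.3 and 28.9 FPKM in SMAD4KO_BRAF, Hk1 at 11.9, 11.1 and 6.59 FPKM and Hk2 at 25.6, 40.6 and 26.5 FPKM. Pgk1 was at 15.5, 10.3 and 11.3 FPKM there, Pgam1 at 5.32, 4.72 and 3.82 FPKM and Eno1 at 12.6, 22.6 and 17.4 FPKM. Pdk1 was at 13.8, 14.3 and 20.3 FPKM there, Pfkfb3 at 6.54, 8.40 and 2.03 FPKM and P4ha1 at 3.76, 1.95 and 2.14 FPKM.

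**Figure D4:**
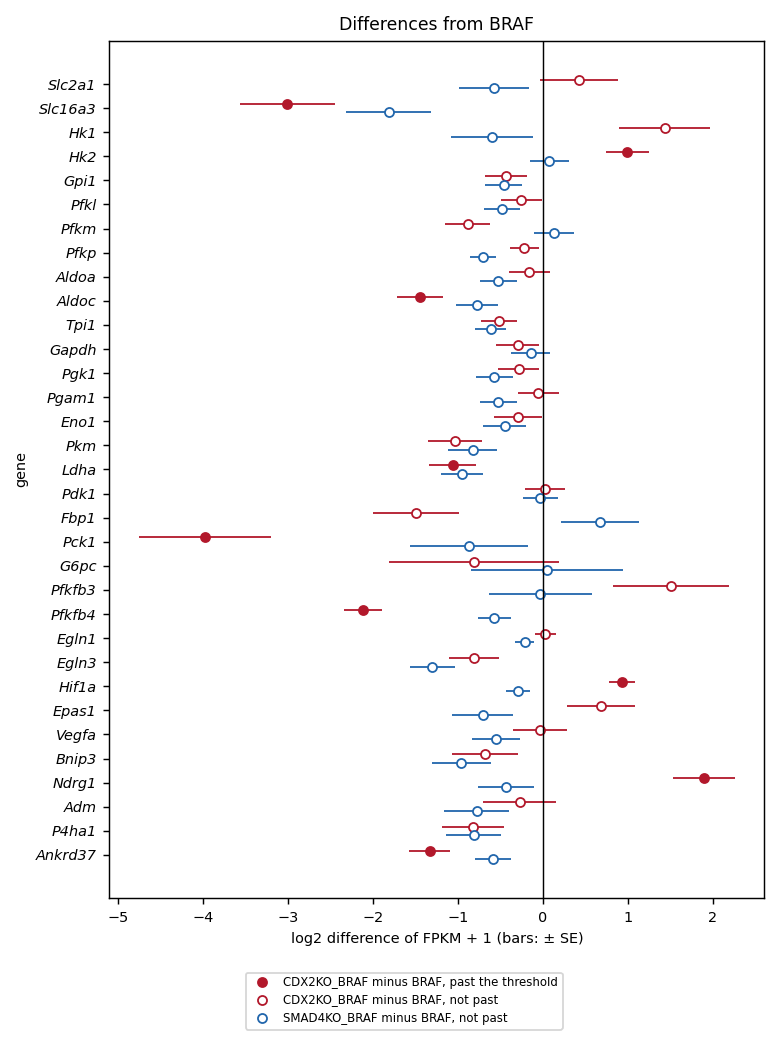
Log2 difference with its standard error (bars) of each tested gene, for the libraries labelled CDX2KO_BRAF minus BRAF and for SMAD4KO_BRAF minus BRAF, by role, with filled points for genes called at an adjusted p under 0.05. No SMAD4KO_BRAF point is filled, 29 of 33 lie below 0, and Pck1 lies at -3.97 for the libraries labelled CDX2KO_BRAF and -0.87 for SMAD4KO_BRAF.

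Both comparisons above use the same 3 BRAF libraries, so their values are not independent. Setting the libraries labelled CDX2KO_BRAF against SMAD4KO_BRAF does not use them in the difference. Of 33 genes, 2 rose (6.06%, against 6.6% of all genes tested) and 4 fell (12.1%, against 5.01%), with a median log2 difference of 0.23, against 0.02 over all genes. Hif1a rose 2.35-fold (1.22 ± 0.16, limma adjusted p = 0.00459) and passed under all 18 alternatives. Ndrg1, at 205 and 337 FPKM in the libraries labelled CDX2KO_BRAF and 82.8, 36.0 and 46.1 FPKM in SMAD4KO_BRAF, rose 4.93-fold (2.33 ± 0.36, limma adjusted p = 0.00986). Pfkfb4 fell (-1.55 ± 0.22, limma adjusted p = 0.00684), as did Fbp1 (-2.16 ± 0.51, 0.037), Pck1 (-3.10, 0.0445) and Pfkm (-1.02 ± 0.26, 0.0495). Pfkm was at 1.59 and 2.25 FPKM in the libraries labelled CDX2KO_BRAF and at 4.11, 4.33 and 6.39 FPKM in SMAD4KO_BRAF. Slc16a3 and Ldha, which fell against BRAF, did not pass here. Hk1 was 4.58-fold higher without passing (2.03 ± 0.54, limma adjusted p = 0.0536). Without library 1 of the group labelled CDX2KO_BRAF, 1 of the 6 calls remained (Hif1a), with Pfkfb4 at 0.0687 and Ndrg1 at 0.0873, and the median of the list was -0.07. Without library 0 of that group, 3 remained, and Pfkm, Fbp1 and Pck1 had adjusted p of 0.255, 0.211 and 0.238. Without SMAD4KO_BRAF library 0, 3 calls were left, and Pfkm, Fbp1 and Pck1 had adjusted p of 0.0696, 0.0569 and 0.0972. Leaving out any 1 SMAD4KO_BRAF library ended the calls of Pfkm (0.0696 to 0.123) and Fbp1 (0.0569 to 0.0875). Pfkm was also lost without BRAF library 0 (0.0564) or 1 (0.0601), and Pck1 without SMAD4KO_BRAF library 1 (0.0974) or BRAF library 2 (0.0696). With no filter on low values, Pfkm (0.0892), Fbp1 (0.0675) and Pck1 (0.0775) were lost. Pfkm also missed the threshold under 4 other settings (0.0511 to 0.0757) and Pck1 with sex as a term (0.0528) or the column number as a block (0.076).

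Some genes of fructose use and sugar transport outside the 34 fell in the libraries labelled CDX2KO_BRAF. Against BRAF, 7.21% of all genes tested fell there and 6.89% rose. Of 6 tested genes of fructose use, 4 fell (Khk, Slc2a5, Aldh1b1 and Dak) and none rose (median -2.00), while Sord had a log2 difference of 0.01. None passed in SMAD4KO_BRAF (median -0.63). Khk, which phosphorylates fructose, was at 35.4 and 31.9 FPKM in the libraries labelled CDX2KO_BRAF, 92.9, 67.8 and 108 FPKM in SMAD4KO_BRAF and 132, 118 and 129.7 FPKM in BRAF (-1.88 ± 0.19 against BRAF, limma adjusted p = 0.00174). Slc2a5, the fructose carrier GLUT5, was at 2.12 and 3.19 FPKM in the libraries labelled CDX2KO_BRAF, 32.6, 12.3 and 20.2 FPKM in SMAD4KO_BRAF and 72.9, 29.9 and 40.3 FPKM in BRAF (-3.65 ± 0.46, limma adjusted p = 0.00366). Of 7 tested genes of sugar and lactate transport outside the list, 3 fell. They were Slc2a5 again, Slc2a9 and Slc5a1, the sodium-glucose carrier SGLT1 (-2.76 ± 0.58, limma adjusted p = 0.0228). Of 10 tested further genes of glycolysis, 3 fell (Hkdc1, Pgm1 and Eno3) and Ldhd, a D-lactate dehydrogenase, rose. Of 5 further gluconeogenic genes, Slc37a4, a glucose 6-phosphate carrier, fell (-0.70, limma adjusted p = 0.0301) and Pck2, the mitochondrial carboxykinase, rose (0.84, limma adjusted p = 0.0346).

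The lists that follow had 1 call each or none in the libraries labelled CDX2KO_BRAF against BRAF. Of all genes tested, 6.89% rose and 7.21% fell there, so 1 call in a short list says little about that list. Of 12 tested genes of pyruvate oxidation, Pdk2, a kinase related to Pdk1, was the only one called. It was at 7.15 and 10.9 FPKM in the libraries labelled CDX2KO_BRAF, 14.0, 12.4 and 14.3 FPKM in SMAD4KO_BRAF and 22.3, 22.4 and 22.8 FPKM in BRAF (-1.25 ± 0.16, limma adjusted p = 0.00417). The SMAD4KO_BRAF difference did not pass (-0.69 ± 0.15, limma adjusted p = 0.179). Of 7 pentose phosphate genes, Taldo1, transaldolase, fell (-0.79 ± 0.14, limma adjusted p = 0.0132). Neither Pfkfb1 nor Pfkfb2, the other tested genes for fructose 2,6-bisphosphate, passed in either comparison with BRAF. Of 6 further oxygen-sensing genes, Hif3a rose (3.27 ± 0.48, limma adjusted p = 0.00587). It encodes a HIF alpha subunit, some forms of which restrain the others. Hif3a was at 17.4 and 29.4 FPKM in the libraries labelled CDX2KO_BRAF, 4.73, 3.14 and 1.34 FPKM in SMAD4KO_BRAF and 2.05, 0.49 and 2.22 FPKM in BRAF. Of 23 further hypoxia-induced genes tested, Hilpda, a lipid droplet protein, rose (1.01 ± 0.25, limma adjusted p = 0.0367) and none fell. The median of those 23 was -0.12 in the libraries labelled CDX2KO_BRAF and -0.48 in SMAD4KO_BRAF, where 0 passed. Over 25 housekeeping genes, 2 of which are members, the medians were 0.09 and -0.06 and 0 passed in either comparison.

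Some other cell markers differed between the groups, while T cell, myeloid and mesenchymal markers varied widely within SMAD4KO_BRAF and BRAF. Brush border genes mark absorptive villus cells. In the libraries labelled CDX2KO_BRAF, 17 of 25 tested fell (median -2.22), against 7.21% of all genes tested. In SMAD4KO_BRAF 0 of 25 passed, though all 25 differences were negative and 19 had an unadjusted p under 0.05 (median -1.16). The list shares Slc5a1 and Slc2a2 with the sugar carriers. All 25 brush border genes together summed to 5005 to 10140 FPKM in the libraries labelled CDX2KO_BRAF. Their sum was 8500 to 23520 FPKM in SMAD4KO_BRAF and 16650 to 35150 FPKM in BRAF. Gastric genes summed to 2483 and 8250 FPKM in the libraries labelled CDX2KO_BRAF, against 1.21 to 3.59 FPKM in SMAD4KO_BRAF and 0.823 to 10.9 FPKM in BRAF. Of 14 listed, 5 passed the filter on low values, Pgc, Cldn18 and Tff2 only through those libraries, so no count of calls is given. The gastric genes Tff1 and Sox2 were listed at 0 in every library. Tuft cell genes summed to 50.8 and 136 FPKM in the libraries labelled CDX2KO_BRAF, 8.01 to 18.9 FPKM in SMAD4KO_BRAF and 9.92 to 12.5 FPKM in BRAF. Of 15 tested stem cell genes, 3 rose in the libraries labelled CDX2KO_BRAF against BRAF, where 6.89% of all genes tested rose. The differences of 4 of the 15 were negative. Against SMAD4KO_BRAF, 1 of the 15 rose (6.6% of all genes tested) and 3 fell (5.01% of all genes tested). Of 9 tested Paneth cell genes, 3 fell in the libraries labelled CDX2KO_BRAF against BRAF, where 7.21% of all genes tested fell. In SMAD4KO_BRAF against BRAF, 0 stem cell and 0 Paneth cell genes were called, and 0.0745% of all genes tested. The difference there was negative for 1 of 15 stem cell genes (median 0.45) and for 1 of 9 Paneth cell genes (median 0.83). Of all genes tested, 51.8% had a negative difference there. T cell genes summed to 17.1 and 76.4 FPKM in the libraries labelled CDX2KO_BRAF, 57.4 to 526 FPKM in SMAD4KO_BRAF and 38.3 to 1089 FPKM in BRAF, with 0 of 13 tested genes called, and BRAF library 1 stood highest. Myeloid genes (8 of 10 tested) summed to 427 and 551 FPKM in the libraries labelled CDX2KO_BRAF, 87.0 to 797 FPKM in SMAD4KO_BRAF and 37.3 to 779.5 FPKM in BRAF. Mesenchymal genes (8 of 13 tested) summed to 4.79 and 21.5 FPKM in the libraries labelled CDX2KO_BRAF, 13.0 to 53.3 FPKM in SMAD4KO_BRAF and 11.2 to 136 FPKM in BRAF. Immediate early genes can rise with tissue handling. Their median, as log2(FPKM + 1) minus the BRAF mean, was 0.15 and -0.10 in the libraries labelled CDX2KO_BRAF. It was -0.69, -0.52 and -0.99 in SMAD4KO_BRAF and 0.32, -0.04 and -0.22 in BRAF. The part of these cell types and of handling in the values of the 34 genes was not tested.

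**Figure D5:**
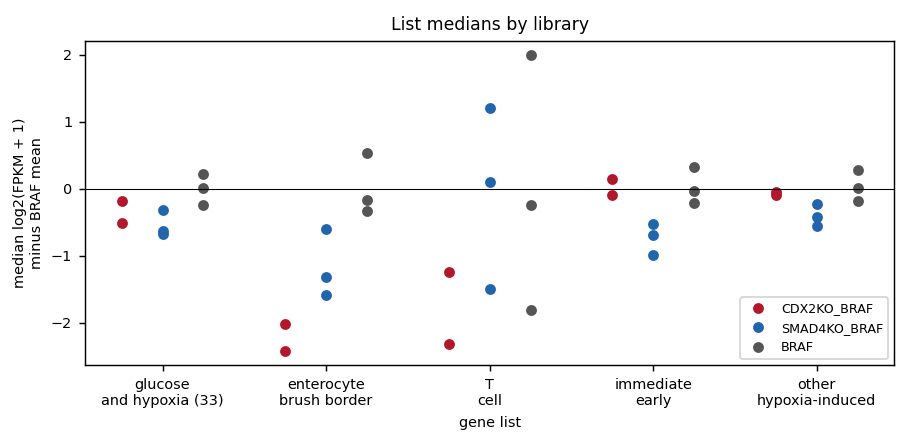
Median level of each gene list in each library, as log2(FPKM + 1) minus each gene's BRAF mean, with the libraries labelled CDX2KO_BRAF left, SMAD4KO_BRAF in the middle and BRAF right. The brush border list lies at -2.02 and -2.42 in the libraries labelled CDX2KO_BRAF, -0.61 to -1.58 in SMAD4KO_BRAF and -0.33 to 0.54 in BRAF.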

How the data were processed

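RNA of 8 crypt libraries had been sequenced with 50-base single-end reads of an unstranded kit, per the labels' protocols. The authors deposited 1 table of FPKM per gene symbol. Per the submitters' processing notes, TopHat2 2.1.0, Cuffnorm 2.2.1, Cuffdiff 2.2.1 and the mm9 build were used. Which of them wrote the table is not given in the sources used here. Read counts are not given, so no count model was used, and depth limits the precision of low values. Columns were tied to groups by name, and 3 columns matching no labelled sample were not used. FPKM were taken as log2(FPKM + 1). A gene was tested if it reached 1 FPKM in at least 2 libraries, which left 12084 genes. limma 3.58.1 in R 4.3.3 (trended empirical Bayes, all 3 groups in 1 fit) gave two-sided p-values, adjusted by Benjamini-Hochberg over all tested genes per comparison, with a threshold of 0.05. The code was tested on simulated data. Sums, shares and figures were made in Python 3.11.15.

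The genes and lists were chosen with earlier results of these data known. All 34 genes are accounted for by role. Values in every library are given for genes that were called, that had the smallest p in their role (up to 3 per role and comparison), whose groups did not overlap, or whose listed level was implausible. Ldhb, listed under 1 FPKM in every library, is given as a range. Genes of other lists are named by smallest adjusted p, up to 3 per list. Exceptions are Eno3, Fbp2, Slc16a1, Rps18, Eef1a1, Slc2a2, Dak, Sord, Tff1 and Sox2, which were chosen after their values were seen. Eno1b, which is on no list, was also named after its values were seen. Shared 50-base stretches were counted in the longest coding GENCODE M21 transcript of each gene, and promoter windows came from RefSeq. Alternatives were another pseudocount, other filters, other scalings, fits of 2 groups only, no trend, library weights, a replicate block, sex as a term and leaving out each library.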

Additional observations from a re-analysis of the deposited data

How the results depend on the processing

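For SMAD4KO_BRAF minus BRAF, 9 genes were called in all, against 5 with no filter on low values, 1069 with library weights and 78 with sex as a term, and 5 to 25 when 1 library was left out. Of the 34 genes, 0 were called, against 8 with library weights and 1 with sex as a term. For the libraries labelled CDX2KO_BRAF minus BRAF, 1704 genes were called in all, against 2602 with library weights and 409 to 1833 when 1 library was left out. Of the 34, 9 were called, against 14 with library weights and 2 to 10 when 1 library was left out, and the list's median ran from -0.52 to -0.15 when 1 library was left out. For the libraries labelled CDX2KO_BRAF minus SMAD4KO_BRAF, 1402 genes were called in all, against 2447 with library weights, 805 with the replicate block and 234 to 1423 when 1 library was left out. Of the 34, 6 were called, against 3 with no filter and 10 with library weights, and 1 to 8 when 1 library was left out, with the list's median between -0.071 and 0.38. The cause of these shifts was not tested.

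Column numbers as a replicate block left 6 of the 9 calls against BRAF. Hk2 (adjusted p = 0.118), Ldha (0.0572) and Ndrg1 (0.0533) were lost, as was Pck1 against SMAD4KO_BRAF (0.076). The correlation of same-numbered libraries' deviations over genes ran from -0.109 to 0.241 and was not over 0.1 in every pair, so the numbers were not taken to pair the libraries. The highest was between library 0 of SMAD4KO_BRAF and of BRAF, the male libraries. In a group of 2 libraries the deviations mirror each other, so those values show little. With no filter Hk2 (0.0739) and Ldha (0.113) were lost, and in a fit of 2 groups only they had adjusted p of 0.0509 and 0.0953. With sex as a term Hk2 had 0.0574. An alternative chosen after seeing the data left out the 13 genes with shared 50-base stretches. It gave 6 calls of 21 tested in the libraries labelled CDX2KO_BRAF against BRAF, 2 higher and 4 lower. Of all genes tested, 6.89% rose and 7.21% fell there. The medians of the 21 were -0.27 for the libraries labelled CDX2KO_BRAF and -0.57 for SMAD4KO_BRAF, against 0.02 and -0.01 over all genes tested. No called value changed sign under any alternative run. Depth is unknown, so genes near 1 FPKM are the least certain.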
